A study of Mus musculus with 3 samples.

Results

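The genes described here encode the ephrins and their Eph receptors, the semaphorins with their plexin and neuropilin receptors, the slits with their robo receptors, and the netrins with the receptors Dcc, neogenin (Neo1) and Unc5. They were chosen by name: a probe set had to carry a single gene symbol of the Epha, Ephb, Efna, Efnb, Robo, Slit, Unc5, Sema or Plxn families, or the symbol Nrp1, Nrp2, Ntn1, Ntn4, Dcc or Neo1, and the probe set with the highest mean stood for each gene. This gave 67 of 19935 genes, 33 ligands and 34 receptors, read by 72 probe sets. Ephb2 was not analysed here. Unc50, whose symbol begins with the same letters, encodes an unrelated protein of the Golgi and was left out.

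Expression was measured on 3 Affymetrix arrays in NMuMG, an epithelial cell line of the mouse mammary gland, grown with puromycin on every array. The mock array (n = 1) held cells with the pCAGIP vector alone. The 2 MAFK arrays held stable lines with pCAGIP-FLAG-MafK, clone 4 and clone 10 (MAFK, n = 2), so each MAFK line is 1 clone. MAFK is a small MAF transcription factor, and the comparison asks which genes differ in cells labelled as carrying its tagged form. The labels name the vector but not the promoter in it, nor whether the mock cells were cloned, so a difference that arose in cloning and one made by MAFK cannot be told apart.

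Guidance molecules were named for steering growing axons, and many are also used by epithelia. Ephrins are membrane-bound ligands of the Eph receptor tyrosine kinases, and contact between cells that carry them commonly leads to repulsion, sorting and the formation of tissue boundaries. Most secreted class 3 semaphorins act through a neuropilin that binds the ligand and a plexin that signals, whereas most other semaphorins bind plexins directly. Slits repel through robos, and netrins attract through Dcc and repel through Unc5 receptors. In the mammary gland, ephrins and Eph receptors, netrin-1 with neogenin, and slits with robos help to shape the duct and to hold its cell layers together.

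Each value is a log2 RMA value, in which 1 unit is a 2-fold difference, and no value is compared between genes because probe sets differ in brightness. A gene was counted as apart from mock where both clones were 2-fold or more above it, or both 2-fold or more below. "Rose" and "fell" are used where it also had an adjusted p under 0.05 in limma, fitted over all 19935 genes. The 3 arrays had medians of 6.89, 6.92 and 6.93. Mock was measured once, and the test takes its spread to be that of the clones. The Mafk probe set gave 8.49 in mock against 8.74 in clone 4 and 8.59 in clone 10, and whether its probes detect the transgene was not analysed here.

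Members were apart from mock in both directions. Sema3a, Epha7 and Sema6a were higher by 2-fold or more in both clones, which is 3 of 67 members against 1.19% of all genes. Epha4, Sema3c and Unc5b were lower by 2-fold or more in both clones, again 3 of 67, against 1.81% of all genes. Of these, Epha4 and Sema3c fell, 2 of 67 members where 0.762% of all genes fell. No member rose, where 0.401% of all genes did, although limma gave 9 members an unadjusted p under 0.05 on the higher side and 12 on the lower. Over all genes such p-values were found for 9.2% on the higher side and 8.26% on the lower, beside 13.4% and 17.9% of members. The median difference of the members was 0 in clone 4 and 0 in clone 10, as over all genes. The calls for Epha4 and Sema3c were lost after a second quantile normalization of the arrays, with limma adjusted p-values of 0.0653 and 0.0649.

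The starts of the genes that led their families in opposite directions are shown because each pair belongs to 1 family: Sema3a and Sema3c among the class 3 semaphorins, and Epha7 and Epha4 among the EphA receptors. The stretches lie before the listed start, with the 65 bases nearest to it left out for Epha7 and the 19 nearest left out for Epha4. They are taken from RefSeq on build GRCm38.p6, run 5′ to 3′ on the strand of the gene, and have each CG dinucleotide in capitals.

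Sema3a, chr5:13396534-13396783, plus strand: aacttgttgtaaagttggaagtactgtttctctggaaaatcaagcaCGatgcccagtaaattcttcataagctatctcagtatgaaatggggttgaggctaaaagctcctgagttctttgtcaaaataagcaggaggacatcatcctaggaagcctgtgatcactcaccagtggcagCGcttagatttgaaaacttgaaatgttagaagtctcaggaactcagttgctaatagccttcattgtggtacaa

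Sema3c, chr5:17574566-17574815, plus strand: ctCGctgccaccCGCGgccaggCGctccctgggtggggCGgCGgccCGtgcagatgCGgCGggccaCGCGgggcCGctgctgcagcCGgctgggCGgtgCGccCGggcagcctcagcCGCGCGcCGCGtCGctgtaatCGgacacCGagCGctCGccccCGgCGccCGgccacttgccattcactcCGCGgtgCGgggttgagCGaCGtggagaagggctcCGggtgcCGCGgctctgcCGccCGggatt

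Epha7, chr4:28812881-28813065, plus strand: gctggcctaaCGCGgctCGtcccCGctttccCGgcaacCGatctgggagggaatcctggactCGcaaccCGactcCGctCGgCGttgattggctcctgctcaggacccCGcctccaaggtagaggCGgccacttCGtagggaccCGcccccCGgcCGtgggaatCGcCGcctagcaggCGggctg

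Epha4, chr1:77515108-77515338, minus strand: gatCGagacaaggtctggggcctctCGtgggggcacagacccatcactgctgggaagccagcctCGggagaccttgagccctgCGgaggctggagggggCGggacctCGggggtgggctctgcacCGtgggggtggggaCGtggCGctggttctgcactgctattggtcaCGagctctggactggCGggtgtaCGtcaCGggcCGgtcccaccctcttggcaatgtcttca

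The semaphorin pair differed in base composition. The 250 bases before the Sema3a start held 2 CG dinucleotides at 40.8% G and C, and those before the Sema3c start held 39 at 78.4%. Over 32851 windows of up to 250 bases from 27025 genes the median was 6 CG dinucleotides. Over the 73 windows of 57 members it was 16. The listed Sema3a start lies inside a longer model of that gene, so the window is not the start of every Sema3a transcript. The stretch for Epha7 is 185 bases and that for Epha4 is 231, each ending where a longer model of the gene begins, with 20 and 14 CG dinucleotides.

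Both strands of the windows of up to 250 bases were searched for sites that MAF proteins are known to bind. No window was available for 10 members, Sema6a among them, so these were not searched. The full MAF recognition element (MARE) was found in 2 of the 32851 windows and in none of the members' windows. Its variant with a CRE core, which is longer by a base, was in none of either. The part element TGCTGA, which begins both forms, was in 16.1% of all windows and in 8.22% of the members' windows, those of Efna1, Efnb1, Epha10, Ephb4, Plxnb2 and Robo2. The antioxidant response core TGACNNNGC was in 10.2% of all windows and 11% of the members' windows, of which Efna5, Efnb2, Ntn4, Plxnb3, Sema3g, Sema4a, Sema4d and Sema7a had a match. TGANTCA, the AP-1 element in the centre of the full element, was in 6.75% of all windows and in 4.11% of the members' windows (Sema4c, Sema4d and Sema6b). The E-box CACCTG, bound by SNAIL and ZEB repressors, was in 17.2% of all windows and in 12.3% of the members' windows. The members with it were Efnb2, Epha1, Plxnb2, Robo1, Robo3, Sema3d, Sema4c, Sema4f and Sema6d. The stretches printed above held none of these letters, which says only that they are not in these windows.

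Among the ligands, the largest differences were those of 2 class 3 semaphorins. Sema3a, a secreted repellent that binds neuropilin-1, read 5.39 in mock against 9.41 in clone 4 and 7.87 in clone 10. Both clones were above mock, clone 4 by 16.3-fold and clone 10 by 5.60-fold. These are folds between RMA values: the mock value is under 6.91, the median of all probe sets, and whether it or any other value under that level lay above background was not tested. Its MAFK mean was 8.64 ± 1.09 (SD, n = 2), and it did not pass (difference 3.25 ± 0.78 SE, limma adjusted p = 0.217). Sema3c, a class 3 semaphorin that signals through both neuropilins and promotes migration in several tissues, read 11.36 in mock against 9.64 in clone 4 and 9.53 in clone 10. Sema3c fell 3.42-fold, to a MAFK mean of 9.59 ± 0.08 (SD, n = 2), a difference of -1.78 ± 0.09 (SE) with a limma adjusted p of 0.0405. The clones lay within 1.08-fold of each other for Sema3c, whereas for Sema3a clone 4 was 2.91-fold above clone 10.

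The other class 3 members stayed close to mock. Sema3e, the ligand of plexin-D1, differed by 0.12 in clone 4 and 0.46 in clone 10, and Sema3b, Sema3d, Sema3f and Sema3g by between -0.03 and 0.29. Sema3a, Sema3c, Sema3d and Sema3e all lie on chromosome 5, and the gene annotation places no protein-coding gene between Sema3d and Sema3a. Sema3d read 5.34 in mock and 5.36 in both clones, so this neighbour of Sema3a was not apart from mock. Its values are under 6.91, the median of all probe sets, and whether they lay above background was not tested.

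**Figure D1:**
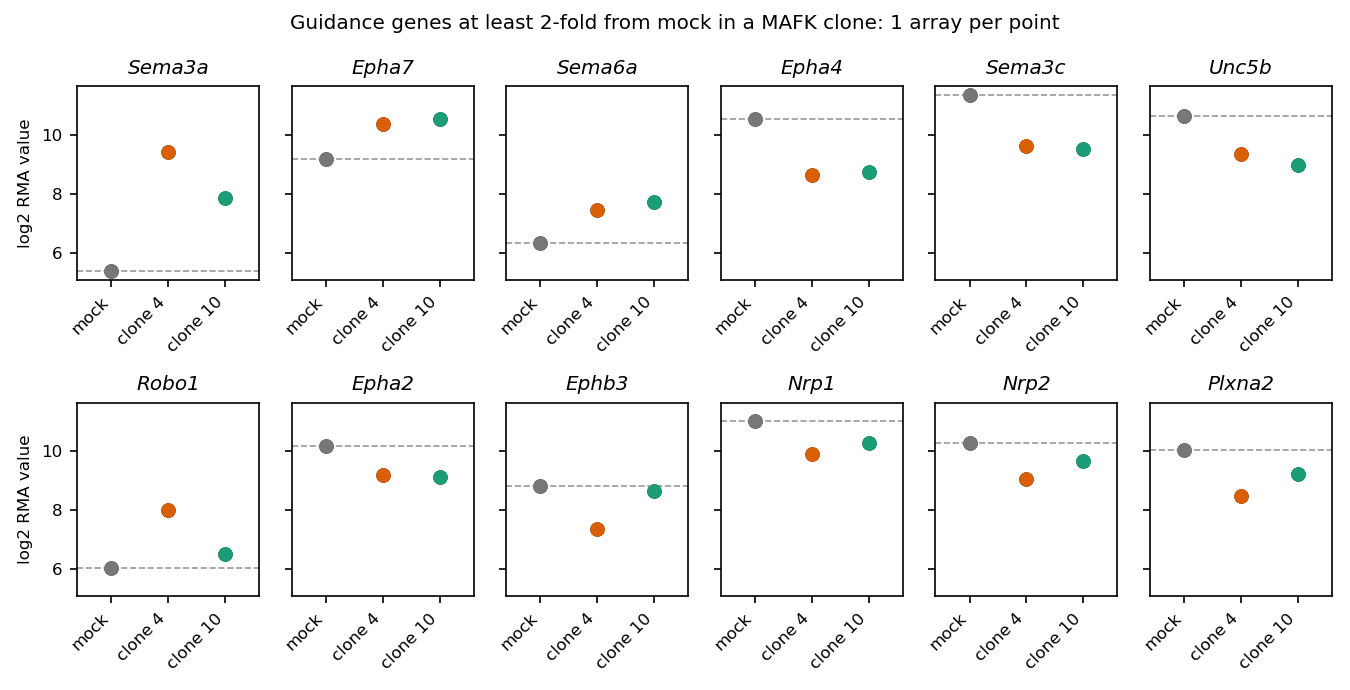
log2 RMA values of the 12 guidance genes at least 2-fold from mock in 1 or both clones, 1 point per array (grey mock, orange clone 4, green clone 10), with the dashed line at the mock value. Epha4 and Sema3c have both clones close together and below mock, while the clones of Sema3a, Robo1 and Ephb3 lie apart; levels are comparable within a panel, not between panels.

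Among membrane-bound semaphorins, Sema6a and Sema5a differed most from mock, both on the higher side. Sema6a, a transmembrane ligand of plexin-A2 and plexin-A4, read 6.32 in mock against 7.47 in clone 4 and 7.71 in clone 10. Both clones were higher, by 2.42-fold on average, without passing (difference 1.27 ± 0.14 SE, limma adjusted p = 0.0946). Sema5a, which carries thrombospondin repeats and binds plexin-B3, read 6.67 in mock and 7.55 in both clones, 1.85-fold higher (limma adjusted p = 0.0654). Its equal values in the clones give it the smallest standard error of the fit, 0.07. Sema5b, Sema6b, Sema6c, Sema6d and Sema7a were between -0.17 and 0.18 from mock in both clones.

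Of the 6 class 4 semaphorins, none was 2-fold apart in either clone, as was the case for 19066 of all 19935 genes. Below mock in both clones were 3, beside 3560 of all 19935 genes. Sema4d, a ligand of plexin-B1, read 8.37 in mock against 7.85 in clone 4 and 7.54 in clone 10 (difference -0.68 ± 0.17 SE, limma adjusted p = 0.229). A second Sema4d probe set went the other way, at 7.29 in mock against 7.51 in clone 4 and 7.46 in clone 10, so the direction for this gene depends on the probe set. Sema4b and Sema4c were each at -0.34, and Sema4a, Sema4f and Sema4g lay between -0.13 and 0.08.

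Both neuropilins, the ligand-binding receptors of most class 3 semaphorins, lay below mock in both clones, beside 3560 of all 19935 genes. Nrp1 read 11.03 in mock against 9.93 in clone 4 and 10.29 in clone 10, so that MAFK minus mock was -0.93 ± 0.20 (SE, limma adjusted p = 0.191). Nrp2 read 10.30 in mock against 9.05 in clone 4 and 9.67 in clone 10, so that MAFK minus mock was -0.94 ± 0.32 (SE, limma adjusted p = 0.329). Each was thus at least 2-fold lower in clone 4 only, and neither passed.

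Plexin-A genes, which encode the signalling partners of neuropilins, differed among themselves. Plxna2 read 10.04 in mock against 8.50 in clone 4 and 9.24 in clone 10, 2.91-fold lower in clone 4 and 1.75-fold lower in clone 10 (limma adjusted p = 0.301). Plxna4 read 7.80 in mock against 7.05 in clone 4 and 6.98 in clone 10, a closer pair, with a difference of -0.79 ± 0.08 (SE, limma adjusted p = 0.0835). Plxna1 was at -0.39 in clone 4 and -0.28 in clone 10, and Plxna3, which is X-linked, was 0.29 higher in both. Across the 9 plexins 5 lay below mock in both clones and 1 above, beside 3560 and 6711 of all 19935 genes. Plxnb2, a plexin-B that binds class 4 semaphorins, read 11.92 on all 3 arrays, and Plxnc1, the receptor of Sema7a, read 5.22 on all 3. Plxnb1 was 0.33 higher in clone 4 and at the mock value in clone 10, Plxnb3 was at -0.41 and -0.38, and Plxnd1 at -0.24 and -0.35.

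Among the 13 Eph receptors, the EphA genes with the largest differences went in opposite directions. Epha4, a receptor that binds ephrins of both classes, read 10.55 in mock against 8.65 in clone 4 and 8.75 in clone 10. Epha4 fell 3.60-fold to a MAFK mean of 8.70 ± 0.07 (SD, n = 2), a difference of -1.85 ± 0.08 (SE) with a limma adjusted p of 0.0365. Epha7, which binds ephrin-A ligands, read 9.17 in mock against 10.37 in clone 4 and 10.56 in clone 10. Epha7 was 2.46-fold higher in both clones' mean, with the clones within 1.14-fold of each other, but did not pass (difference 1.30 ± 0.12 SE, limma adjusted p = 0.0730). With the prior of the test taken from all genes it did, at 0.0481.

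Epha2, the EphA receptor of many epithelia and a binder of ephrin-A1, lay at the edge of the size rule. It read 10.19 in mock against 9.21 in clone 4 and 9.13 in clone 10, 1.98-fold and 2.08-fold lower (limma adjusted p = 0.0643). The remaining EphA genes, Epha1, Epha3, Epha5, Epha6, Epha8 and Epha10, were between 0 and 0.27 from mock in both clones.

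Of the 4 EphB receptors, which bind ephrin-B ligands, Ephb3 was the one at least 2-fold apart between the clones. It read 8.82 in mock against 7.36 in clone 4 and 8.65 in clone 10. Ephb3 was 2.75-fold lower in clone 4 and 1.12-fold lower in clone 10, so that the clones lay 2.46-fold apart (limma adjusted p = 0.840). Ephb6, whose kinase domain is inactive, was at -0.93 in clone 4 and -0.44 in clone 10 (limma adjusted p = 0.359). Ephb4, the receptor of ephrin-B2, was at 0.31 and 0.39 and Ephb1 at 0.23 in both.

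None of the 8 ephrin ligands was 2-fold apart from mock in either clone, which also held for 19066 of all 19935 genes. Efnb1, an X-linked gene for a ligand of EphB receptors, read 8.21 in mock against 8.72 in clone 4 and 8.87 in clone 10, 1.49-fold higher (limma adjusted p = 0.159). Efnb2 was at -0.17 and -0.09, and Efnb3 had the same value on all 3 arrays. Of the ephrin-A genes, Efna4 had the largest mean difference, at 0.23 in clone 4 and 0.29 in clone 10 (limma adjusted p = 0.262). Efna1, Efna3 and Efna4 are consecutive protein-coding genes on chromosome 3, and none of them was 2-fold apart. Efna1, the ligand of Epha2, differed by 0.01 in clone 4 and 0.21 in clone 10, Efna5 by 0.33 and 0.03, and Efna2 by 0.06 in both.

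**Figure D2:**
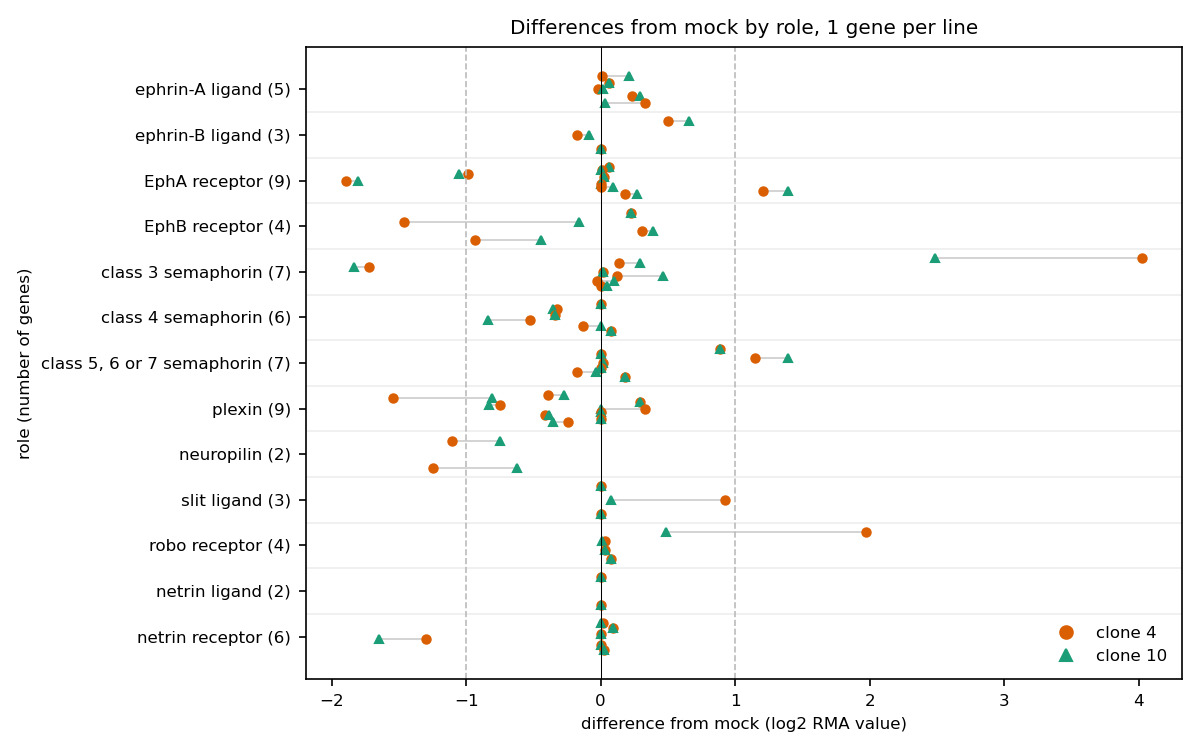
Differences from mock in log2 RMA units for all 67 genes, grouped by role, with 1 line per gene joining clone 4 (orange circle) and clone 10 (green triangle) and dashed lines at 2-fold. Netrin ligands lie at 0, ephrin ligands stay within 2-fold of mock, both neuropilins lie below mock, and class 3 semaphorins and EphA receptors reach past 2-fold in both directions. Of all 19935 genes, 19066 stay within 2-fold of mock in both clones and 3560 lie below mock in both.

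In the netrin family the receptor Unc5b was the member apart from mock. Unc5b, a repulsive netrin-1 receptor that can trigger cell death when no ligand is bound, read 10.64 in mock against 9.34 in clone 4 and 8.99 in clone 10. Both clones were lower, by 2.78-fold on average, without passing (difference -1.47 ± 0.19 SE, limma adjusted p = 0.109). The ligand genes Ntn1 and Ntn4 each had the same value on all 3 arrays, 6.97 and 7.90. Neo1, which encodes the netrin and RGM receptor neogenin, read 10.93 in mock and 11.03 in both clones (limma adjusted p = 0.758). Dcc, Unc5a, Unc5c and Unc5d were between 0 and 0.02 from mock.

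Of the 7 slits and robos, 4 had equal values in the clones, as had 55.5% of all genes. Robo1 and Slit2 were those farthest from mock. Robo1, a slit receptor, read 6.04 in mock against 8.01 in clone 4 and 6.52 in clone 10. It was 3.92-fold higher in clone 4 and 1.40-fold higher in clone 10 (limma adjusted p = 0.645). Slit2, a ligand of Robo1, read 6.23 in mock against 7.15 in clone 4 and 6.31 in clone 10 (limma adjusted p = 0.883). For both genes clone 4 was the higher and clone 10 lay closer to mock. None of the 7 slits and robos had a mean at or above 6.91, the median of all probe sets, beside 10722 of all 19935 genes. Robo2, which neighbours Robo1 on chromosome 16 with no protein-coding gene between, was at 0.03 and 0.01, and Robo3, Robo4, Slit1 and Slit3 were within 0.07 of mock.

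**Figure D3:**
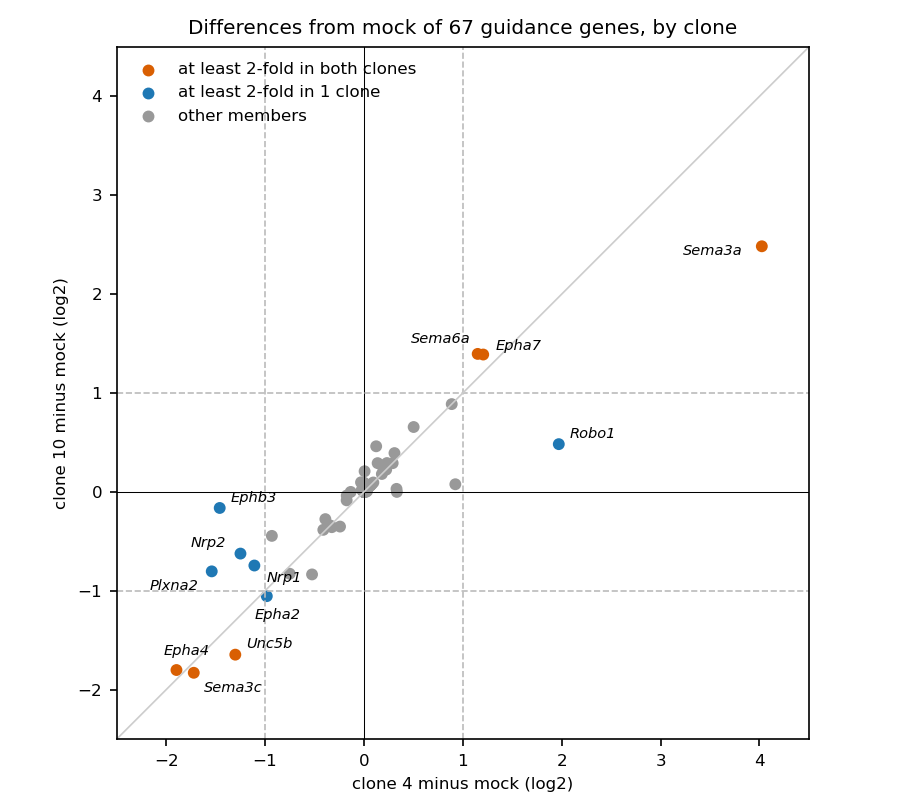
Difference from mock in clone 4 (x axis) and clone 10 (y axis), both in log2 units, for 67 guidance genes; the mock array is shared, dashed lines mark 2-fold and the diagonal marks equal differences. Epha4, Sema3c, Unc5b, Sema6a and Epha7 lie near the diagonal, while Sema3a, Robo1, Ephb3, Plxna2 and Nrp2 are farther from mock in clone 4.

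Between the clones, 3 of 67 members were at least 2-fold apart, Sema3a, Robo1 and Ephb3, against 0.441% of all genes. A further count concerns members that reached 2-fold from mock in 1 clone only. These were 6 of 67, against 1.35% of all genes, and all were receptors: Nrp1, Nrp2, Plxna2, Ephb3 and Robo1 in clone 4, and Epha2 in clone 10. Counting clone 4 alone gave 4 higher and 7 lower members, beside 305 and 448 of all 19935 genes. Clone 10 alone gave 3 and 4 members, beside 291 and 424 of all genes. With 1 array per clone, these differences have no replicate check.

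Most members showed small differences. In both clones 49 of 67 (73.1%) lay within 1.5-fold of mock, against 90.8% of all genes, and 30 (44.8%) lay within 0.1 on the log2 scale, against 57.3%. Equal values on all 3 arrays were found for 12 members (17.9%) and for 34.3% of all genes. There were 29 members above mock in both clones and 18 below, beside 6711 and 3560 of all genes. Of the 67, 39 had a mean at or above 6.91, the median of all probe sets, beside 10722 of all 19935 genes. A gene under that level may be weakly expressed or carried by few cells, and in bulk RNA fewer cells with a transcript and less transcript per cell cannot be told apart.

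Other genes of these pathways were taken from a list of 106 ligands, coreceptors and intracellular partners, of which 99 were measured. Of these, 2 rose, beside 0.401% of all genes, and none fell, beside 0.762%. A further 3 were lower by 2-fold or more in both clones, beside 1.81% of all genes. limma gave 7 an unadjusted p under 0.05 on the higher side and 17 on the lower, which is 7.07% and 17.2% of the 99 against 9.2% and 8.26% of all genes. Enah, 1 of the 3 lower genes, had a limma adjusted p of 0.0523 with the prior from all genes and 0.109 after a second quantile normalization. These were the lowest and the highest among the other settings tried, and it passed in none. Pak3, a p21-activated kinase that acts below Rac and Cdc42, read 5.50 in mock against 8.68 in clone 4 and 8.67 in clone 10, and rose 9.02-fold (limma adjusted p = 0.0256). Pak3 is X-linked. Rgma, a membrane-anchored ligand of neogenin, read 7.19 in mock against 8.62 in clone 4 and 8.56 in clone 10, and rose 2.64-fold (limma adjusted p = 0.0438). The Rgma call was lost after a second quantile normalization (limma adjusted p = 0.0653) and with low values left out (0.0555).

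The 3 lower genes act on the cytoskeleton. Enah, an actin regulator of the Ena/VASP family that works below robo and netrin receptors, read 10.87 in mock against 8.77 in clone 4 and 9.07 in clone 10, 3.86-fold lower (limma adjusted p = 0.0706). Dpysl3, a member of the CRMP family that relays semaphorin signals, read 8.69 in mock against 6.43 in clone 4 and 7.25 in clone 10, 3.60-fold lower (limma adjusted p = 0.204). Elmo1, part of a Rac-activating complex, read 8.60 in mock against 6.97 in clone 4 and 7.40 in clone 10, 2.66-fold lower (limma adjusted p = 0.142). All 3 were lower in both clones and none passed. Over the 99 genes the median was 0 in each clone.

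Markers of the labelled and of other cell types were read on the same arrays. Of 16 mammary epithelial markers 2 fell, Cdh1 (24.3-fold) and Tjp1 (2.79-fold), and none was 2-fold higher in both clones. The log2 of their summed linear values was 14.71 in mock against 14.14 in clone 4 and 14.18 in clone 10, and 8 or 9 of the 16 reached the median of all probe sets on each array. In this and the other sums the probe sets with the highest values weigh most, so each sum is set against the same list on other arrays only. None of 12 neuron markers reached that median on any array or was 2-fold apart. Of 12 fibroblast markers 1 (Dcn) was lower, the summed level being 11.88 in mock against 10.92 in clone 4 and 11.35 in clone 10. Endothelial markers, 1 of 12 higher (Flt1), summed to 10.15, 10.84 and 10.59, and immune markers, 1 of 12 higher (Cd74), to 9.75, 10.06 and 10.00. The part of any of these in the guidance genes' differences was not tested.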

How the data were processed

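Per-probe-set log2 values were deposited, which the authors made with RMA per the submitters' processing notes; the version, filters and genome build are not given in the sources used here. RMA corrects background, quantile normalizes arrays and summarises probes by median polish, which can return equal values: 55.5% of genes were equal in both clones.

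Of 28815 probe sets, 21780 had 1 gene symbol, 1605 several and 5430 none; only the first were named, 21689 of them through Entrez identifiers in a gene table of GRCm38.p6. The number of arrays limits the precision. Groups follow the sample titles. All 3 arrays entered limma 3.58.1 in R 4.3.3 (two-sided, Benjamini-Hochberg over 19935 genes), with 1 residual degree of freedom and a prior of 1.93 degrees of freedom from the 8873 genes whose clones differed. Genes equal in the clones have the smallest standard error, so ties favour passing. The labels do not say whether cultures were separate, so p-values reflect no more than the spread of these arrays. The script was tested on simulated data.

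Members and lists were chosen with earlier results of these data known. Named members are those at least 2-fold apart in 1 or both clones or between clones, and the member farthest from mock in each role; named partners are those 2-fold apart in both clones. Others are given by range or value. Alternatives were another normalization, a filter on low values, the mean of a gene's probe sets, chromosomes 8, 14 and X left out, a 1.5-fold threshold, 3 other priors and each clone alone. The sequence motifs were chosen after the values were seen.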

Additional observations from a re-analysis of the deposited data

How the results depend on the processing

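The 21 genes named by rule had 184 alternative values, and none reversed direction. The 3 other priors, the filter and the chromosomes left out do not change a gene's difference, so they could not reverse it. Averaging probe sets could move only Sema4d, and genes 2-fold apart in both clones could not reverse with 1 clone left out. Only the second normalization could move every gene. Among the 184 values, the limma adjusted p moved to 0.05 or above in 4 (Epha4, Sema3c and Rgma, the last in 2) and below 0.05 in 2 (Epha7 and Epha2). A second quantile normalization left no member that fell (0 in place of 2, Epha4 and Sema3c) and moved the members' median difference to -0.015 in clone 4 and -0.0084 in clone 10; with the mean of all probe sets of a gene the clone 10 median was 0.0036. With the prior from all genes 1 member rose (Epha7), and Epha2 had a limma adjusted p of 0.0290 but was under 2-fold in clone 4 and so did not fall. With the mean of all probe sets Sema4d was at -0.25 in place of -0.68. At 1.5-fold in both clones, 4 members were higher (Epha7, Sema3a, Sema5a and Sema6a), 8 members were lower (Epha2, Epha4, Nrp1, Nrp2, Plxna2, Plxna4, Sema3c and Unc5b), 507 of all genes were higher and 723 lower, and 4 partners and effectors were higher and 8 lower. Without chromosomes 8, 14 and X, 1 partner was higher, as Pak3 is X-linked. With 1 clone left out, the count of members was 3 to 4 higher and 4 to 7 lower, that of partners and effectors 2 to 3 higher and 3 to 5 lower, and that of all genes 291 to 305 higher and 424 to 448 lower. The larger counts of members came without clone 10, which added Ephb3, Nrp1, Nrp2, Plxna2 and Robo1. A single clone leaves no residual degree of freedom, so the test could not be run without a clone. No paired analysis was possible because mock is 1 array. Causes of these changes were not tested.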

Other observations

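Genes with like names outside the family rule stayed near mock. Unc5cl, a cytoplasmic relative of the Unc5 receptors, and Slitrk6 had the same value on all 3 arrays, and Slitrk1, Slitrk3, Slitrk4 and Slitrk5, neuronal membrane proteins with slit-like repeats, were between 0.04 and 0.17 above mock in both clones. Slitrk2 was at -0.04 in clone 4 and at the mock value in clone 10. Ntn3, Ntn5 and Ntng1, the other netrin genes measured, differed by between 0 and 0.13. Among coreceptors and adhesion partners, Flrt3, which binds robos and Unc5 receptors, was 0.82 higher in clone 4 and 0.93 in clone 10 (limma adjusted p = 0.0869). Of the 99 partners, 3 were 2-fold apart from mock in 1 clone only, beside 1.35% of all genes, and for each that was clone 4. Itga1 was 1.96 higher in clone 4 and 0.59 in clone 10. Ablim3, an actin-binding protein, was at -2.33 and -0.86, and Sdc1, a heparan sulfate proteoglycan of epithelia, at -1.12 and -0.83. Flrt3, Itga1, Ablim3 and Sdc1 were chosen after their values were seen.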
